A study of Mus musculus with 11 samples.

Results

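The transcriptional coactivators YAP and TAZ, the TEAD factors that carry them to DNA, their inhibitors and their target genes were followed in liver sinusoidal endothelial cells (ECs) of mice with and without a gut microbiota. The set held 10 genes, taken by their symbols from the 29307 genes of the count table: *Yap1*, *Wwtr1*, *Tead1*, *Lats2*, *Amotl1*, *Amotl2*, *Ajuba*, *Ctgf*, *Cyr61* and *Ankrd1*. *Ctgf* and *Cyr61* are the older symbols of *Ccn2* and *Ccn1*. All 10 had counts in at least 1 library, and 9 of them were among the 12905 genes with enough counts to be tested.

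The study compared 5 germ-free (GF) with 6 conventionally raised (CONV-R) male C57BL/6J mice, aged 10 to 12 weeks and fed the same standard diet, to ask how the presence of a gut microbiota affects the hepatic endothelium. GF mice lived in sterile isolators, and CONV-R mice of the same colonies were kept under specific-pathogen-free conditions. ECs were enriched with beads for CD146 and sorted as CD31+, CD105+ and CD146+ cells, and RNA of each mouse gave 1 library. The labels number the CONV-R mice 1 to 6 and the GF mice 1, 2, 4, 5 and 6, and each mouse is called a replicate below by that number.

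In the Hippo pathway, the kinases LATS1 and LATS2 phosphorylate YAP and TAZ and hold them in the cytoplasm, while unphosphorylated YAP and TAZ enter the nucleus and activate genes together with TEAD factors. Cell contact, cell shape, shear stress and matrix stiffness feed into this switch. In ECs it is known for its part in sprouting and in the response to flow, and in the liver for growth and for the fibrotic response. Because much of the regulation is by phosphorylation, transcript levels of the components do not measure the activity of the proteins.

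The promoters of 3 members are shown because TEAD factors bind a short core, GGAATG, and because these genes gave 3 different readouts here: *Cyr61* did not pass the test, *Amotl2* fell in GF ECs and *Ankrd1* was almost without counts. Each sequence holds the 250 bases before the transcription start in RefSeq on GRCm38.p6, read 5′ to 3′ in the direction of the gene. Capitals mark GGAATG, or CATTCC where the core lies on the other strand. They lie at chr3:145649986-145650235 on the minus strand for *Cyr61*, at chr9:102717554-102717803 on the plus strand for *Amotl2* and at chr19:36119845-36120094 on the minus strand for *Ankrd1*.
Cyr61: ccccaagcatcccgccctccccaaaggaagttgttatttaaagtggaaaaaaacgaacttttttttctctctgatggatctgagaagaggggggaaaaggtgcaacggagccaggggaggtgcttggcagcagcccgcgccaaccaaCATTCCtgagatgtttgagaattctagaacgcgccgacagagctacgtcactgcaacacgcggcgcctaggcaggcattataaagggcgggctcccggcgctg
Amotl2: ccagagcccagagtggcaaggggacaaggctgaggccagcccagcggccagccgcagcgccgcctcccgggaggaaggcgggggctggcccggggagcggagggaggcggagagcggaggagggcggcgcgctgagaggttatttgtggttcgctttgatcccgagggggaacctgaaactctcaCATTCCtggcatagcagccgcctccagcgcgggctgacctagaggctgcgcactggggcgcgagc
Ankrd1: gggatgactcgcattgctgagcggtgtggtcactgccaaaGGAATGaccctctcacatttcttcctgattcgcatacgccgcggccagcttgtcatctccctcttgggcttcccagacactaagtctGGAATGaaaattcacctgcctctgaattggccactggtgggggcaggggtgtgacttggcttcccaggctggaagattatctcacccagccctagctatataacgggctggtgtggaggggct

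Counted back from the start, the core began at position -103 in *Cyr61* and at -65 in *Amotl2*, both on the other strand, and at -210 and -123 in *Ankrd1*. Of the 10 members, 8 were matched to RefSeq promoters and 6 of these held the core on either strand. *Yap1* had it at -141, *Wwtr1* at -136 from its first start and *Ajuba* at -186 and -164, whereas the windows of *Amotl1* and *Lats2* did not hold these letters. *Ctgf* and *Tead1* were not matched. Of all 27025 RefSeq genes, 14.4% held GGAATG on either strand in a window of the same length before any of their starts. The letters TGANTCA, an AP-1 motif searched on both strands, were in 0 of the 8 matched members and in 7.82% of all genes. No overlap between the motifs arose in these windows, and a match is a description of the sequence only.

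Across the set, *Ctgf* was strongly higher and *Amotl2* modestly lower in GF ECs, and the other 7 tested members did not pass the test. This compares with 7.48% of all tested genes past the threshold of an adjusted p of 0.05, 4.8% higher and 2.67% lower, in the quasi-likelihood test of edgeR (Benjamini-Hochberg adjustment). DESeq2 called 9.83% of the genes it tested and the same 2 members. Of the tested members, 5 had a positive and 4 a negative log2 fold change of GF against CONV-R (Log2FC). The median Log2FC was 0.19 over the 9 tested members and -0.01 over all tested genes, whose middle 50% ran from -0.25 to 0.22. These are bulk samples, in which fewer cells of a type and less RNA per cell cannot be told apart.

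**Figure D1:**
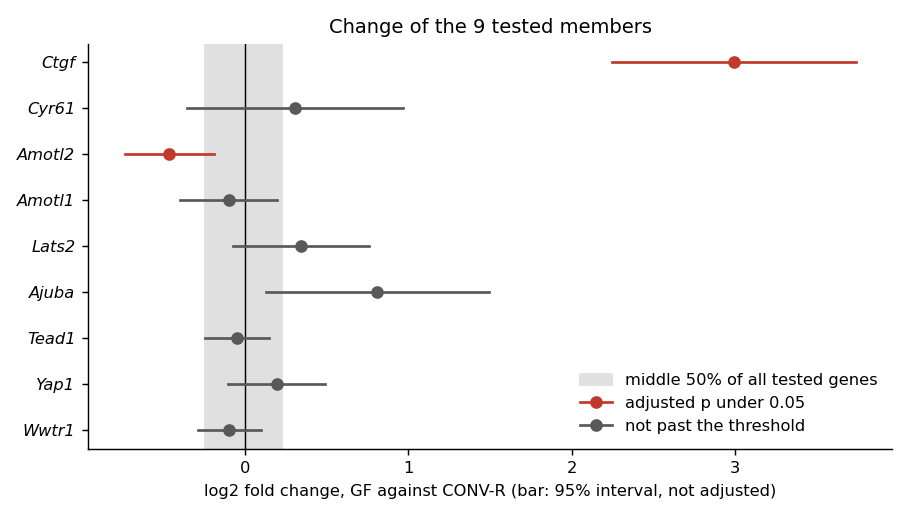
Points show the Log2FC of GF against CONV-R ECs for the 9 tested members and bars its 95% interval, not adjusted for the number of genes; the grey band holds the middle 50% of all tested genes, from -0.25 to 0.22. *Ctgf* at 2.99 stands far to the right of the other members, and *Amotl2* at -0.46 is the other gene past the threshold, in red.

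*Ctgf* encodes a secreted matricellular protein of the CCN family and is one of the most used readouts of YAP and TEAD. The gene lies at chr10:24595442-24598683 on the plus strand of GRCm38. CPM are counts per 1000000 of the library size after TMM normalization. *Ctgf* had 10.1, 30.0 and 42.1 CPM as the lowest, median and highest value in CONV-R ECs. In GF ECs it had 396 CPM in replicate 1, 319 in replicate 2, 130.1 in replicate 4, 145 in replicate 5 and 137 in replicate 6. All 5 GF libraries were thus above all 6 CONV-R libraries, and GF replicates 1 and 2 stood above the other GF mice. GF replicate 2 also had counts in 22674 genes, against 15456 to 18495 in the other 10 libraries, and without it *Ctgf* still passed, with a Log2FC of 2.84. Of all tested genes, 5.59% had groups that did not overlap (3.22% with GF higher and 2.37% with GF lower).

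The means of *Ctgf* were 28.5 ± 12.5 CPM in CONV-R and 225 ± 124 CPM in GF ECs (SD, n = 6 and 5 mice). The Log2FC was 2.99 (standard error 0.35, 95% interval 2.25 to 3.74, adjusted p = 6.06e-05 in the edgeR test after Benjamini-Hochberg adjustment), which is 7.96-fold. Only 34 tested genes had a larger Log2FC. Leaving out each mouse in turn gave Log2FC values of 2.69 to 3.14 for *Ctgf*, with the adjusted p at most 0.000292 in the same edgeR test. The transcript *Gm15270* lies on the opposite strand and shares 665 bases, or 23.2% of the exon bases of *Ctgf*. It held 427 counts over all libraries, against 1012 to 6088 counts of *Ctgf* in each GF library and 130 to 498 in each CONV-R library. Whether the counting used strand is not stated, so reads from the shared bases cannot be assigned with certainty.

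*Cyr61* encodes the CCN family member closest in use to *Ctgf* as a YAP and TEAD readout (chr3:145646976-145649981, minus strand). It had 2.95, 4.78 and 5.49 CPM as the lowest, median and highest CONV-R value. GF replicates 1, 2, 4, 5 and 6 had 5.13, 3.96, 2.57, 7.80 and 8.68 CPM. The groups overlapped, with GF replicates 5 and 6 above and GF replicate 4 below all CONV-R mice. The Log2FC was 0.30 (95% interval -0.36 to 0.97, adjusted p = 0.611 in the edgeR test after Benjamini-Hochberg adjustment). The gene had 27 to 79 counts per library. Any change inside this interval is compatible with the values of these mice.

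The ratio of *Ctgf* to *Cyr61* within a library does not depend on library scaling. On the log2 scale it ran from 1.76 to 3.12 in CONV-R and from 3.97 to 6.32 in GF ECs, without overlap. The means were 2.52 ± 0.55 and 5.28 ± 1.12 (SD, n = 6 and 5), a difference of 2.76 (p = 0.00216 in a two-sided exact permutation test, which is the lower limit of this design, and 0.00649 after Benjamini-Hochberg adjustment over 3 ratios). The 2 genes therefore differed in how far they moved.

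*Ankrd1* encodes an ankyrin repeat protein of muscle and other cells and is a YAP target in many adherent cells in culture (chr19:36111961-36120099, minus strand). It had 2 counts in CONV-R replicate 4 and 0 in the other 10 libraries. A count of 0 allows up to 3 counts, which is 0.195 to 0.407 CPM depending on the library and covers counting error only. The gene did not enter the fit, and since 1 library held all its counts, a permutation test of it is void and none is given.

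**Figure D2:**
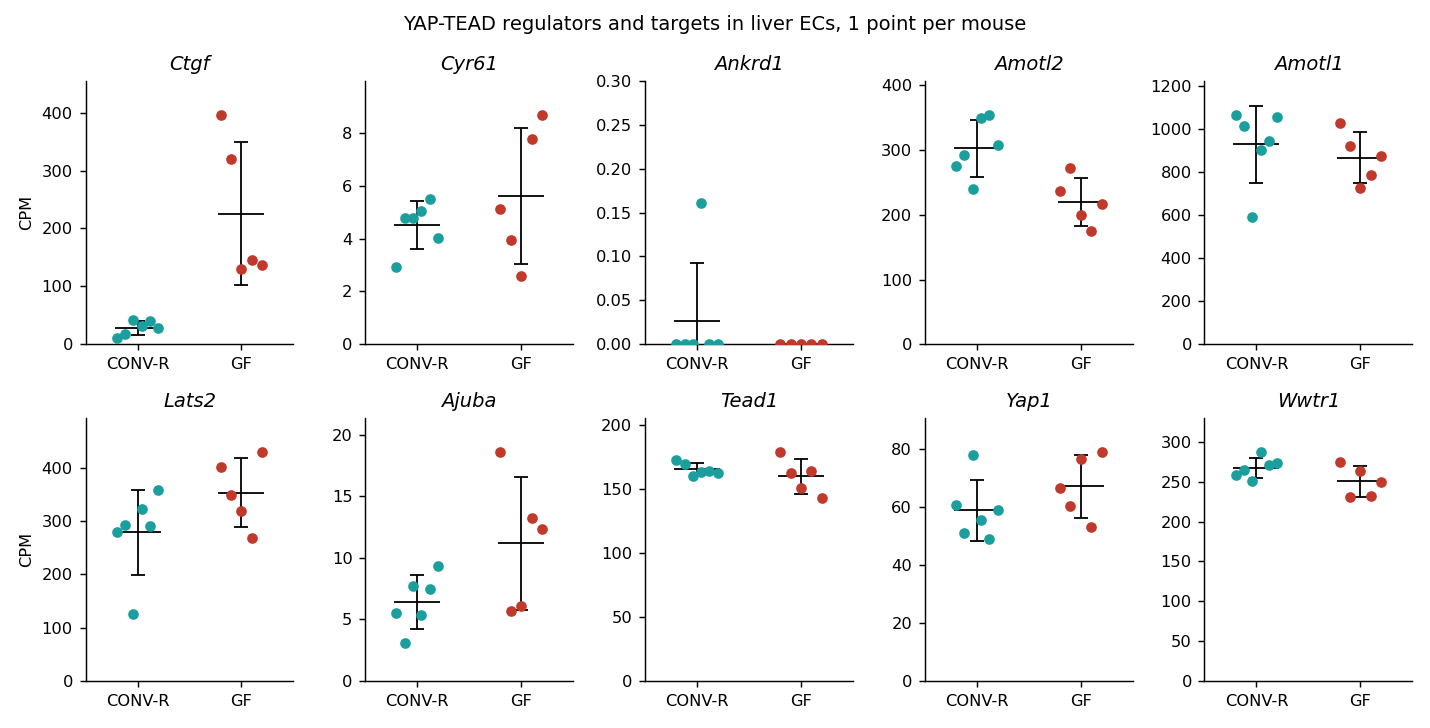
CPM of the 10 members, with 1 point per mouse, CONV-R in turquoise and GF in red; the long bar is the mean and the whiskers the SD (n = 6 and 5), and each axis starts at 0 with its own scale. The 5 GF points of *Ctgf*, from 130.1 to 396 CPM, lie above all CONV-R points, and in the other panels the groups overlap.

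Of the negative regulators, *Amotl2* and *Amotl1* encode angiomotin-like proteins, which bind YAP and TAZ at junctions and on actin and keep them out of the nucleus. *Amotl2* is also a transcriptional target of YAP and TEAD (chr9:102716672-102733418, plus strand). Its lowest, median and highest CONV-R values were 239.9, 299.6 and 354 CPM. In GF ECs it had 237, 273, 199, 175 and 216 CPM in replicates 1, 2, 4, 5 and 6. The values of 4 GF mice lay below those of all CONV-R mice, and that of GF replicate 2 lay among them.

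*Amotl2* fell from 303 ± 43.9 CPM in CONV-R to 220.0 ± 37.2 CPM in GF ECs (SD, n = 6 and 5), a Log2FC of -0.46 (standard error 0.13, 95% interval -0.74 to -0.19, adjusted p = 0.0382 in the edgeR test after Benjamini-Hochberg adjustment). The call was lost in 8 of the 11 fits with 1 mouse left out, namely CONV-R replicate 2, 4, 5 or 6 or GF replicate 1, 4, 5 or 6, with adjusted p values of 0.0517 to 0.0901 in the same edgeR test and Log2FC values of -0.49 to -0.39. Without CONV-R replicate 3 the Log2FC of *Amotl2* was -0.52 (adjusted p = 0.0142 in the same edgeR test).

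*Amotl1* (chr9:14541966-14645056, minus strand) had 591, 979 and 1065 CPM as its lowest, median and highest CONV-R value. The GF libraries had 1030.2, 922, 725, 786 and 877 CPM in replicates 1, 2, 4, 5 and 6. All GF values lay within the CONV-R range, whose low end was CONV-R replicate 3 alone. The Log2FC was -0.10 (95% interval -0.40 to 0.20, adjusted p = 0.729 in the edgeR test after Benjamini-Hochberg adjustment). Without CONV-R replicate 3 it was -0.20 (adjusted p = 0.260 in the same edgeR test).

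The log2 ratio of *Amotl2* to *Amotl1* averaged -1.60 ± 0.27 in CONV-R and -1.99 ± 0.17 in GF ECs (SD, n = 6 and 5). The difference of -0.38 had p = 0.0346 in the two-sided exact permutation test and 0.0519 after Benjamini-Hochberg adjustment over 3 ratios. It was thus not shown that the 2 angiomotin-like genes differed in change.

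*Lats2* encodes a kinase that phosphorylates YAP and TAZ, and its transcription is raised by YAP itself in a feedback loop (chr14:57689662-57758388, minus strand). CONV-R libraries had 126, 292 and 359 CPM as the lowest, median and highest value. GF replicates 1, 2, 4, 5 and 6 had 402, 349, 319, 267 and 429 CPM, with replicates 1 and 6 above all CONV-R mice. The Log2FC was 0.34 (95% interval -0.07 to 0.76, adjusted p = 0.314 in the edgeR test after Benjamini-Hochberg adjustment), and it was 0.19 without CONV-R replicate 3, which had the lowest value. In GENCODE M21 the gene *Gm49361*, which was not analysed here, covers 42.4% of the exon bases of *Lats2* on the same strand, so it is uncertain how reads from the shared bases were counted.

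*Ajuba* encodes a LIM domain protein that binds LATS kinases at junctions under tension and restrains them (chr14:54567472-54577558, minus strand). It was weakly expressed, with 3.07, 6.47 and 9.31 CPM as the lowest, median and highest CONV-R value. GF replicates 1, 2, 4, 5 and 6 had 18.6, 5.70, 6.09, 13.2 and 12.3 CPM. GF replicates 1, 5 and 6 lay above all CONV-R mice and the other two GF mice lay among them. The Log2FC was 0.81 (95% interval 0.13 to 1.50). The adjusted p was 0.143 in the edgeR test after Benjamini-Hochberg adjustment, so *Ajuba* did not pass.

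*Yap1* (chr9:7931999-8004596, minus strand) and *Wwtr1* (chr3:57455649-57575910, minus strand) encode the coactivators YAP and TAZ. *Yap1* had 48.8, 57.2 and 77.8 CPM as its lowest, median and highest CONV-R value, and 66.5, 60.4, 76.7, 53.1 and 78.9 CPM in GF replicates 1, 2, 4, 5 and 6. *Wwtr1* had 251, 268 and 287 CPM as its lowest, median and highest CONV-R value, and 275, 231, 263, 233 and 249.7 CPM in the same GF replicates. The groups overlapped for both genes. The Log2FC was 0.19 for *Yap1* (95% interval -0.11 to 0.49) and -0.10 for *Wwtr1* (95% interval -0.29 to 0.10), with adjusted p values of 0.446 and 0.572 in the edgeR test after Benjamini-Hochberg adjustment.

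*Tead1* encodes a factor that binds DNA and recruits YAP and TAZ (chr7:112679318-112906807, plus strand). The CONV-R values were 160.5, 163 and 173 CPM as lowest, median and highest, and the GF values were 179, 162, 151, 164 and 143 CPM in replicates 1, 2, 4, 5 and 6. GF replicate 1 lay above and GF replicates 4 and 6 below all CONV-R mice. The Log2FC was -0.05 (adjusted p = 0.811 in the edgeR test after Benjamini-Hochberg adjustment) and its 95% interval -0.24 to 0.15.

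The log2 ratio of *Yap1* to *Wwtr1* averaged -2.20 ± 0.29 in CONV-R and -1.91 ± 0.19 in GF ECs (SD, n = 6 and 5). The difference of 0.29 did not pass the two-sided exact permutation test (p = 0.0866, the same after Benjamini-Hochberg adjustment over 3 ratios). CONV-R replicate 3 had a ratio of -1.69, above those of 4 GF mice, and without it the difference was 0.39 with p = 0.0159 in the same exact test, before adjustment.

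**Figure D3:**
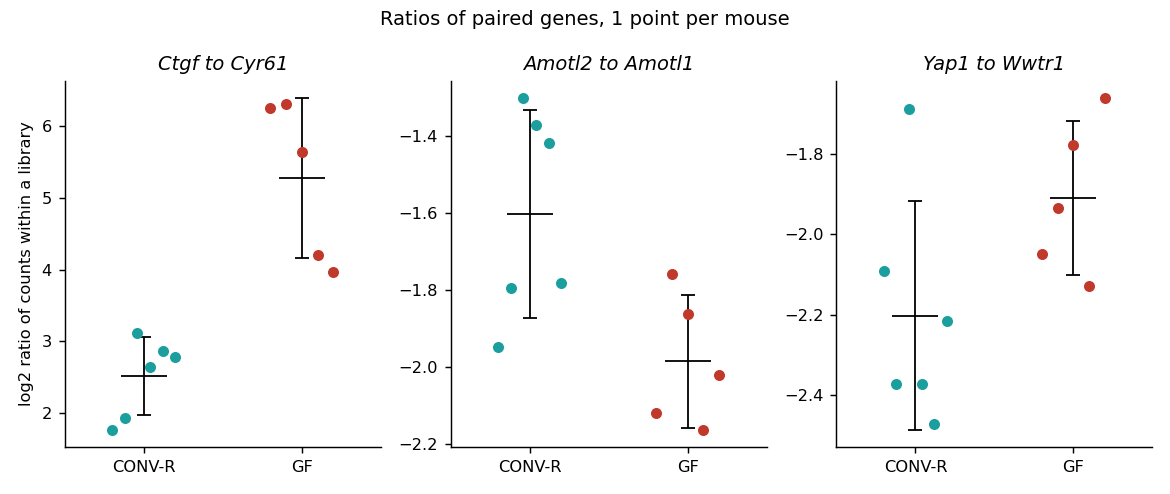
Log2 ratios of counts within a library for *Ctgf* to *Cyr61*, *Amotl2* to *Amotl1* and *Yap1* to *Wwtr1*, with 1 point per mouse, the mean as a long bar and the SD as whiskers (n = 6 CONV-R and 5 GF). The ratio of *Ctgf* to *Cyr61* lies at 3.97 or more in GF and at 3.12 or less in CONV-R ECs, and the groups overlap in the other panels.

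Levels of different genes were compared per length, as CPM per kilobase of merged exons (RPKM). In CONV-R ECs *Amotl1* was highest at 92.3 ± 17.6 RPKM, followed by *Wwtr1* at 56.0 ± 2.66, *Amotl2* at 48.2 ± 6.98 and *Lats2* at 39.9 ± 11.5 RPKM (SD, n = 6). *Tead1* followed at 12.2 ± 0.347, *Ctgf* at 9.95 ± 4.36, *Yap1* at 6.35 ± 1.12, *Cyr61* at 2.24 ± 0.448 and *Ajuba* at 1.76 ± 0.604 RPKM, with *Ankrd1* last. The neighbours *Amotl2* and *Lats2*, *Tead1* and *Ctgf*, *Ctgf* and *Yap1*, and *Cyr61* and *Ajuba* differed by less than the larger of their SDs. Inhibitors of YAP and the TAZ transcript were thus the most abundant members per length.

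In GF ECs *Ctgf* was second per length at 78.8 ± 43.2 RPKM, between *Amotl1* at 86.2 ± 11.8 and *Wwtr1* at 52.4 ± 4.00 RPKM (SD, n = 5). Its distance to *Amotl1*, *Wwtr1* and *Lats2*, at 50.7 ± 9.27 RPKM, was below its own SD. *Amotl2* came next at 35.0 ± 5.91, then *Tead1* at 11.8 ± 1.00, *Yap1* at 7.25 ± 1.17, *Ajuba* at 3.07 ± 1.48 and *Cyr61* at 2.79 ± 1.27 RPKM. *Wwtr1* and *Lats2*, and *Ajuba* and *Cyr61*, were also neighbours that differed by less than the larger SD.

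The members did not vary as 1 block across mice. After the group means were taken off, the highest Pearson's r of the 36 pairs of tested members was that of *Lats2* and *Amotl1* (r 0.87, Spearman's rho 0.55, n = 11 libraries). By rho *Tead1* and *Amotl1* came first at 0.63. Without CONV-R replicate 3 the r of *Lats2* and *Amotl1* was 0.61 and the highest was that of *Amotl2* and *Ctgf* at 0.78, against 0.48 with it. In CONV-R replicate 3 *Lats2*, *Amotl1* and *Amotl2* all had their lowest CONV-R value. Within groups *Wwtr1* varied by 4.74% and 7.64% of its mean in CONV-R and GF ECs and *Tead1* by 2.85% and 8.50%, whereas *Ctgf* varied by 43.8% and 54.8%.

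Among the 12904 other tested genes, those most like *Ctgf* across the 11 libraries with group means taken off were *Tbcel* (r 0.93, rho 0.94), *Myrip*, *Slc10a6*, *Abcg2* and *Nsmaf* (r 0.89). The transporter genes *Slc10a6* and *Abcg2* were also higher in GF ECs, with Log2FC values of 3.47 and 1.73, whereas *Tbcel*, *Myrip* and *Nsmaf* had Log2FC values of -0.23, 0.07 and -0.0011 and did not pass. The genes most like *Cyr61* on the same scale were *Gm44119* (r 0.98, rho 0.95), *Clec1a*, *2700016F22Rik*, *Gm17057* and *Ndor1* (r 0.92). Of these, *Clec1a* and *Ndor1* rose, with Log2FC values of 0.62 and 0.48, and the others did not pass. *Gm44119*, *2700016F22Rik* and *Gm17057* were weakly expressed, with group means of 0.733 to 2.65 CPM, so their correlations rest on few counts. The groups of *Ctgf* do not overlap, so the genes most like it as measured, *Abcg2*, *Stat2*, *Tle1*, *Slc10a6* and *Vwa3a*, are named with no correlation. On log2 CPM as measured, those most like *Cyr61* were *2700016F22Rik* (r 0.92, rho 0.91), *Ctps2*, *Fanci*, *Fos* and *Ahcyl1*. *Fanci* was weak too, at 1.15 CPM in CONV-R and 1.50 CPM in GF ECs on average. With group means taken off, the 5 named for *Ctgf* and the 5 named for *Cyr61* held no gene in common. The highest values of so many comparisons over the same few libraries are a description only.

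The other genes of the Hippo pathway were read from lists, each against the 7.48% of all tested genes that passed (4.8% higher and 2.67% lower). None of the 10 genes of the kinase core, which holds the MST kinases, their scaffolds, LATS1 and the MAP4K and TAO kinases, passed the edgeR test in either direction, with 2 at an unadjusted p under 0.05, and DESeq2 and voom also called 0. Their median Log2FC was 0.01, and *Taok1* and *Taok2*, the most abundant over all libraries, had Log2FC values of 0.12 and 0.09. *Map4k4* had groups that did not overlap, as did 5.59% of all tested genes. It ran from 248.2 to 274.0 CPM in CONV-R and from 199.9 to 244.3 CPM in GF ECs (Log2FC -0.16). The unadjusted 95% intervals of *Stk3* (Log2FC -0.30) and *Mob1b* (0.28) did not reach 0, and *Stk3* passed in 1 of the 11 fits with 1 mouse left out, that without CONV-R replicate 3, as lower in GF ECs (Log2FC -0.39, adjusted p = 0.0426 in edgeR). Among 14 tested upstream and junctional regulators, 1 rose and 0 fell, with a median Log2FC of 0.20. It was *Mark2*, a polarity kinase, with 57.6 CPM in CONV-R and 85.6 CPM in GF ECs on average (Log2FC 0.57, adjusted p = 0.0278 in the edgeR test after Benjamini-Hochberg adjustment). The call of *Mark2* was lost in 6 of the 11 fits with 1 mouse left out, those without CONV-R replicate 4, 5 or 6 or GF replicate 1, 4 or 6. *Tjp1*, which encodes the junction protein ZO-1, and *Ywhaz* were the most abundant of the others, with Log2FC values of 0.26 and 0.30, and did not pass.

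Of the other TEAD factors and their cofactors, 3 of 7 were tested and 0 passed in edgeR, DESeq2 or voom, with 2 at an unadjusted p under 0.05 in edgeR. *Tead4* had a Log2FC of -0.21 and *Vgll4*, a repressor of TEAD, of 0.62 (95% interval 0.08 to 1.15, adjusted p = 0.152 in the edgeR test after Benjamini-Hochberg adjustment). *Tead3*, *Vgll1*, *Vgll2* and *Vgll3* were at 0 in at least 1 library and were not tested.

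The list of YAP and TAZ signature targets had 13 tested genes of 17, of which 3 rose and 0 fell, against 4.8% higher and 2.67% lower among all tested genes. Their median Log2FC was 0.07, against -0.01 over all. *Igfbp3*, a binding protein of insulin-like growth factors, had 4.33 CPM in CONV-R and 52.6 CPM in GF ECs on average (Log2FC 3.58). Its CONV-R values ran from 0.0683 to 14.2 CPM with the highest in replicate 5, without which the Log2FC was 4.45. *Axl*, a receptor tyrosine kinase, had 20.8 and 43.0 CPM (Log2FC 1.04), and *Myof*, a membrane repair protein, had 2.34 and 7.33 CPM (Log2FC 1.62). The adjusted p values were 0.00249, 0.00591 and 0.0182 in the edgeR test after Benjamini-Hochberg adjustment, and the groups did not overlap for *Igfbp3* and *Axl*. The 10 others did not pass. *Asap1* and *Crim1*, the most abundant of these, had Log2FC values of -0.20 and 0.41. Among those that did not pass, *Gadd45a* averaged 9.91 CPM in CONV-R and 4.92 CPM in GF ECs, and *Tgfb2* had a Log2FC of -0.83. DESeq2 called 5 genes of this list, adding *Gadd45a* as lower and *Nuak2* (0.49) as higher in GF ECs, and limma voom called 2, without *Myof*. *Fjx1* was not analysed here.

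Of 12 further named targets, 7 were tested, 1 rose and 0 fell (4.8% and 2.67% of all tested genes), with a median Log2FC of 0.11. *Thbs1*, which encodes the matricellular protein thrombospondin 1, had 23.5, 21.5, 1.52, 21.3 and 10.7 CPM in GF replicates 1, 2, 4, 5 and 6, against 0.478 to 4.52 CPM in CONV-R ECs. GF replicate 4 lay within the CONV-R range. The Log2FC was 2.88 (adjusted p = 0.00329 in the edgeR test after Benjamini-Hochberg adjustment). In limma voom its adjusted p was 0.0520. *Ccnd1*, which encodes cyclin D1, and *Wisp1*, another CCN family gene, had Log2FC values of -0.22 and -0.03 and did not pass.

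Targets of the actin-responsive factors MRTF and SRF, many of which are also raised by matrix stiffness, had 10 tested of 14, of which 2 rose and 0 fell, against 4.8% and 2.67% of all tested genes (median Log2FC 0.38). Of the 10, 9 had a positive Log2FC and 5 were at an unadjusted p under 0.05 in edgeR. DESeq2 called 3 genes of this list and voom 2. *Vcl* and *Flna*, which encode the cytoskeletal proteins vinculin and filamin A, had Log2FC values of 0.56 and 0.41 with adjusted p values of 0.0314 and 0.0297 in the edgeR test after Benjamini-Hochberg adjustment. Each of these 2 calls was lost in 6 of the 11 fits with 1 mouse left out. For *Vcl* these were the fits without CONV-R replicate 4, 5 or 6 or GF replicate 2, 4 or 6, and for *Flna* those without CONV-R replicate 2, 4, 5 or 6 or GF replicate 1 or 2. *Flna* was also lost with no filter on low counts, at an adjusted p of 0.0675 in edgeR. Of 16 dissociation and immediate early genes, 8 were tested, 1 rose and 0 fell, against 4.8% and 2.67% of all tested genes. It was *Btg2*, with a Log2FC of 0.62. Its groups overlapped, with 57.8 CPM in CONV-R replicate 3 and 54.9 CPM in GF replicate 6. The median Log2FC of the 8 genes was 0.48, against -0.01 over all tested genes, with 5 of the 8 positive. DESeq2 called 2, adding *Nr4a1* (1.46) as higher in GF ECs. The part of these genes in the result for *Ctgf* was not tested. The listed genes *Jun*, *Jund*, *Ier2*, *Hspa1a* and *Hspa1b* were not analysed here.

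**Figure D4:**
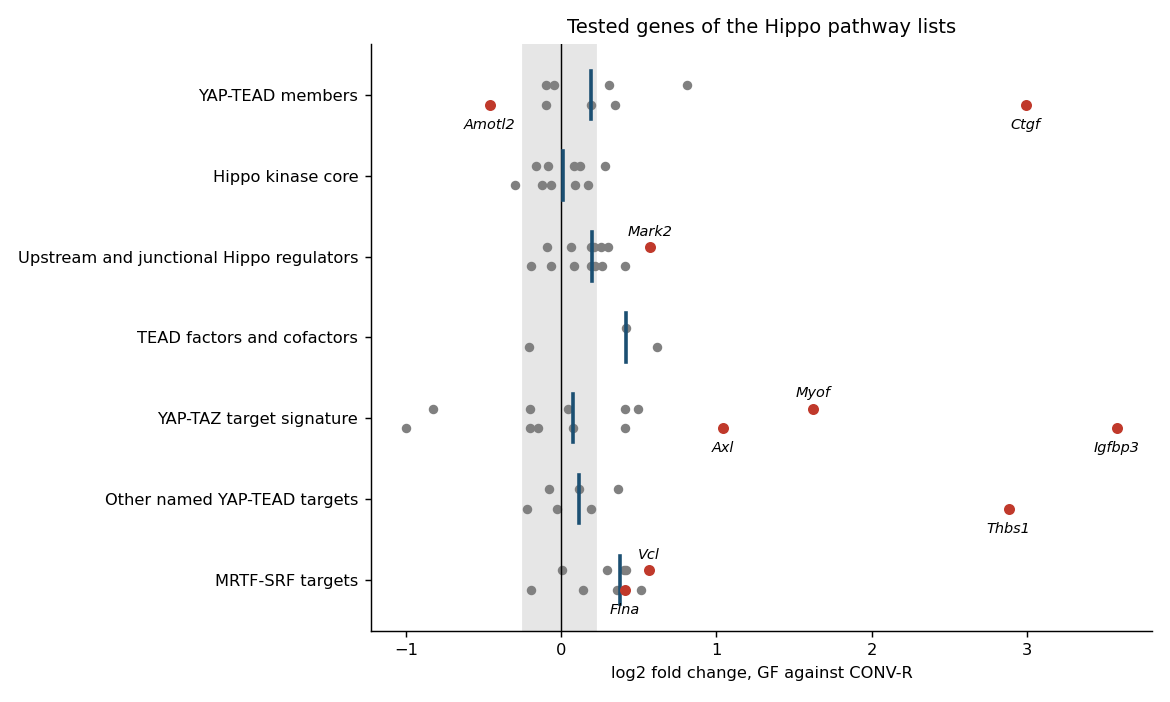
Log2FC of GF against CONV-R ECs for the tested genes of each list, with genes past the threshold in red and named, the median of each list as a blue bar and the middle 50% of all tested genes as a grey band. The kinase core has no gene past the threshold, and *Igfbp3* at 3.58, *Ctgf* at 2.99 and *Thbs1* at 2.88 lie farthest to the right.

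As a check of the sort, the 10 sinusoidal EC markers summed to 31986 to 41060 CPM in CONV-R and 31616 to 45100 CPM in GF ECs, and 0 of them passed in edgeR, DESeq2 or voom, with 3 at an unadjusted p under 0.05 in edgeR. Of the 9 pan-endothelial markers, 1 passed, against 7.48% of all tested genes, and 4 were at an unadjusted p under 0.05. It was *Erg*, which fell, with a Log2FC of -0.68. The libraries held 7922855 to 14669352 counts in CONV-R and 7242717 to 16164588 in GF mice.

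Markers of other cells were set beside *Ctgf*, *Igfbp3*, *Axl*, *Myof* and *Thbs1*, since several such markers were higher in GF libraries too. Of 8 large vessel EC markers, 7 were tested, 2 rose and 0 fell, against 4.8% and 2.67% of all tested genes. *Cd34* (Log2FC 1.20) and *Ly6a* (0.97) rose, and DESeq2 added *Gja5* (0.92) as higher in GF ECs. *Rspo3*, *Selp* and *Sox17* had Log2FC values of -0.82, -0.66 and -0.32 and did not pass. *Rspo3* and *Sox17* were among the 5 markers at an unadjusted p under 0.05. *Vwf* had 65.1 to 221 CPM in CONV-R and 405, 236, 79.8, 103 and 179 CPM in GF replicates 1, 2, 4, 5 and 6 (Log2FC 0.76) and did not pass. It was above all CONV-R mice in GF replicates 1 and 2, the mice with the highest *Ctgf*. The median Log2FC of the 7 markers was 0.76. The summed level of the list ran from 690.0 to 1184 CPM in CONV-R and from 808 to 1589 CPM in GF ECs, highest in GF replicate 1, which also had the highest *Ctgf*. *Sele* of this list was at 0 in 2 libraries. In GF replicate 4 the sum of 808 CPM lay within the CONV-R range while *Ctgf* had 130.1 CPM.

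All 10 Kupffer cell markers had a positive Log2FC, with a median of 1.54, and 8 were at an unadjusted p under 0.05 in edgeR. Of the 10, 6 rose and 0 fell past the threshold, against 4.8% and 2.67% of all tested genes. They were *Clec4f*, *Vsig4*, *Adgre1*, *Csf1r*, *C1qb* and *Timd4*, with Log2FC values of 1.55, 1.31, 1.97, 1.85, 1.53 and 1.58. Without GF replicate 6, *Clec4f*, *Vsig4* and *Timd4* were lost, with Log2FC values of 0.94, 0.69 and 0.93, and the other 3 passed. *Clec4f*, *Vsig4* and *Timd4* were also lost without CONV-R replicate 2, 4 or 5, and *Timd4* without CONV-R replicate 3 or GF replicate 2. In limma voom *Timd4* was lost too, at an adjusted p of 0.0588. The sum of the 10 markers ran from 85.1 to 224 CPM in CONV-R and from 193 to 912 CPM in GF libraries, highest in GF replicate 6, and *C1qa* was at 0 in 1 library. GF replicate 6 also had the highest *Myof*, *Axl* and *Igfbp3*, at 14.8, 69.9 and 86.4 CPM, but not the highest *Ctgf* or *Thbs1*. Without this mouse the Log2FC of *Myof* was 1.21, at an adjusted p of 0.0724 in the edgeR test after Benjamini-Hochberg adjustment, whereas *Ctgf*, *Igfbp3*, *Axl* and *Thbs1* still passed.

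Of 7 cholangiocyte markers, 3 were tested, 2 rose and 0 fell, against 4.8% and 2.67% of all tested genes. They were *Spp1* (Log2FC 2.50) and *Tspan8* (2.81). *Spp1* had 8.47 CPM in CONV-R replicate 3, without which its Log2FC was 3.38. *Tspan8* had 0.190 CPM in GF replicate 4, within the CONV-R range. Its call was lost without GF replicate 6 (Log2FC 2.05) or CONV-R replicate 4 and in limma on the normalized values, with adjusted p values of 0.120, 0.0658 and 0.0524, and it was also lost in limma voom. Without CONV-R replicate 6 it was not tested. The sum of the 7 markers ran from 0.341 to 9.33 CPM in CONV-R and from 13.8 to 47.7 CPM in GF libraries, without overlap, and all 7 were at 0 in at least 1 library. The keratin gene *Krt19* had 5.65, 3.09, 0, 0 and 13.8 CPM in GF replicates 1, 2, 4, 5 and 6 and 0 to 1.21 CPM in CONV-R libraries, and did not pass. Stellate cell and fibroblast markers, from cells rich in *Ctgf* in injured liver, summed to 14.4 to 26.6 CPM in CONV-R and 5.62 to 30.9 CPM in GF libraries. Of these 10 genes, 3 were tested, 0 passed in edgeR (1 at an unadjusted p under 0.05, and 1 called by DESeq2 and by voom), and 6 were at 0 in at least 1 library, *Col1a1*, *Col1a2*, *Col3a1* and *Pdgfrb* among them. Mesothelial markers summed to 5.12 to 16.4 and 9.39 to 21.7 CPM, hepatocyte markers to 31.7 to 66.6 and 37.5 to 94.1 CPM and lymphocyte markers to 5.30 to 13.3 and 3.57 to 7.73 CPM in CONV-R and GF libraries, and 0 genes of these 3 lists passed in edgeR. At an unadjusted p under 0.05 there were 0 mesothelial, 1 hepatocyte and 2 lymphocyte genes, and DESeq2 and voom each called 1 lymphocyte gene. The part of other cells in the results for *Ctgf*, *Igfbp3*, *Axl*, *Myof* and *Thbs1* was not tested.

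**Figure D5:**
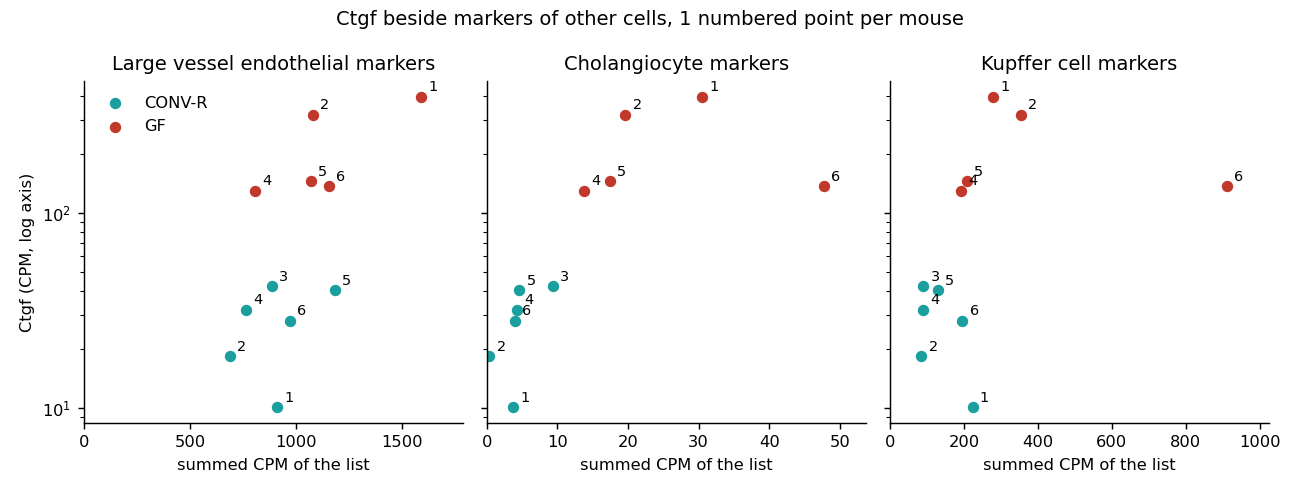
CPM of *Ctgf* on a log axis against the summed CPM of large vessel EC, cholangiocyte and Kupffer cell markers on linear axes, with 1 point per mouse numbered by its replicate (CONV-R in turquoise, GF in red). The groups overlap along the large vessel and Kupffer cell axes and are apart along the cholangiocyte axis, while *Ctgf* separates them in each panel. In GF replicate 4, *Spp1* made up 13.3 CPM of the cholangiocyte sum of 13.8 CPM.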

How the data were processed

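RNA of sorted liver ECs from 6 CONV-R and 5 GF mice was sequenced as 50-base single reads after amplification of cDNA from 20 ng of RNA. The paper reports that GF livers gave far fewer sorted ECs and far less RNA than CONV-R livers. It also names poor survival of cells after the sort as a limitation. Cell yield and RNA amount thus differed along the compared groups, and their part in the results was not tested. The authors trimmed reads with Trim Galore, mapped them to GRCm38 with STAR and deposited raw counts per gene. The methods name featureCounts for the counting, while the submitters' processing notes list StringTie and not featureCounts. They left out 1 GF library with few mapped reads. The authors also deposited normalized values on a log2 scale, made with the DESeq method, which served here only as an alternative. Annotation release and strand setting are not stated.

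Counts were filtered with filterByExpr, scaled by TMM and tested with the quasi-likelihood test of edgeR 4.0.16 in R 4.3.3, with no covariate, Benjamini-Hochberg adjustment over 12905 genes and a threshold of 0.05. Intervals of fold changes are 95% and not adjusted. Ratios used log2 counts after adding 0.5 and an exact permutation test with scipy 1.17.1. Correlations used log2 CPM with a prior count of 2. Positions, exon lengths and overlaps came from GENCODE M21. Plots were drawn with matplotlib 3.10.9. The test was also run on simulated data.

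Each library held 7242717 to 16164588 counts. Counting error and the spread between the 5 or 6 mice of a group were not separated. p-values measure the spread between single-mouse libraries. The members and lists were chosen with earlier results of these data known. The text names every member, every other listed gene past the threshold, up to 2 of the most abundant genes (by mean CPM over all libraries) of a pathway list that did not pass, and the 5 genes most like *Ctgf* and *Cyr61*. Other listed genes named were picked after their values were seen. Alternatives were DESeq2 1.42.0, its size factors, voom of limma 3.58.1, limma on the normalized values, no filter, at least 10 counts in every library, counts drawn down to the lowest total, a replicate block, another added count and each mouse left out.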

Additional observations from a re-analysis of the deposited data

Results flagged for a closer look

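In the CONV-R group the values of *Amotl1* and *Lats2* in replicate 3 stood apart from those of the other 5 mice. *Amotl1* had 591 CPM and *Lats2* 126 CPM there, and the gap to the nearest mouse was 66.2% and 65.6% of the range of the group. The 18 groups of values of the 9 tested members were examined in this way and gave 2 such values, and chance flags about 1 in 20 groups. Both came from the library with the fewest counts among the CONV-R mice, 7922855, and its part in these values was not tested. Without this mouse the Log2FC was -0.20 for *Amotl1* and 0.19 for *Lats2*, and neither passed the test with or without it.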

How the results depend on the processing

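*Ctgf* was past the threshold in all alternatives, with Log2FC values of 2.49 to 3.14, and *Amotl2* in all but 8 of the 11 that left out 1 mouse. The 7 other tested members passed in none. Over all genes 965 passed by edgeR's quasi-likelihood test, 1527 by DESeq2, of which 598 were lower against 345 by edgeR. Leaving out 1 mouse gave 622 to 1260 genes, 413 to 779 higher and 206 to 481 lower. The total was 625 without CONV-R replicate 4 and 622 without GF replicate 6. The number lower was 225, 209 and 206 without CONV-R replicates 2, 4 and 5 and 209 without GF replicate 6. Of the members 1 to 2 then passed, 1 of them higher and 0 to 1 lower. The log2 ratio of *Amotl2* to *Amotl1* differed by -0.45 to -0.32 and that of *Yap1* to *Wwtr1* by 0.23 to 0.39 with 1 mouse left out. The smallest p these exact tests then allow is larger than with all mice. Fits with 1 mouse left out have fewer samples, but the total did not only fall. It was 1260 without GF replicate 5 and 1014 without CONV-R replicate 1. The cause of these changes was not tested. Same-numbered libraries correlated at -0.01 to 0.20 in their deviations. For number 1 the value was 0.20, against at most 0.088 with libraries of another number. Such weak correlations over few mice cannot decide whether the numbers pair the mice. With the replicate block over 10 libraries, 1101 genes and the same 2 members passed, against 931 genes without it, which is the fit without CONV-R replicate 3. No other call on a member changed. Counts were fewest for *Ankrd1*, *Cyr61* and *Ajuba*, and *Ankrd1* had too few to be tested. For *Cyr61* and *Ajuba* the part of low counts in their precision was not separated from the spread between mice.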
